A study of Mus musculus with 12 samples.

Results

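The expression of 10 genes that store and release triglyceride was followed in injured mouse muscle: 4 perilipins that coat lipid droplets (Plin1, Plin2, Plin4, Plin5), 2 droplet-associated proteins of the CIDE family (Cidea, Cidec), both acyltransferases that complete triglyceride synthesis (Dgat1, Dgat2) and 2 lipases (Pnpla2, Lipe). The genes were listed by function, and each was taken from the array cluster (probe set) that carried its symbol alone. All 10 had exactly 1 such cluster, out of 19752 genes measured. The RNA was that of the tibialis anterior, a muscle of the shin, from 8-week-old C57BL/6 mice, and 12 Affymetrix arrays in 4 groups of 3 measured it. Every muscle had been injured on day 0 with cardiotoxin, a snake venom protein that destroys muscle fibres, and every mouse received diphtheria toxin every other day, the controls included. At day 4 the mice were Foxp3-DTR-, lacking the diphtheria toxin receptor, and received amphiregulin (AREG), a ligand of the epidermal growth factor receptor, or its vehicle PBS. At day 8 the mice were Foxp3-DTR+, in which the toxin kills cells that express the receptor under Foxp3, that is regulatory T cells, and they again received AREG or PBS. AREG or PBS was injected into the muscle on day 0 and into the peritoneum every other day. Day and genotype changed together, so a difference between day 4 and day 8 cannot be told apart from one between genotypes. Nothing in the labels ties an array to an animal of its own, so every p-value below speaks only of the spread among these samples.

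Lipid droplets are stores of triglyceride and cholesterol ester wrapped in a phospholipid layer, and perilipins on their surface decide when lipases may reach the core. In the usual order of breakdown, Pnpla2 (adipose triglyceride lipase) removes the first fatty acid and Lipe (hormone-sensitive lipase) acts on the diglyceride that is left. Adipocytes carry Plin1 and Cidec around a single large droplet, skeletal muscle fibres carry Plin4 and Plin5 on small droplets near mitochondria, and Plin2 coats droplets in many cells, lipid-laden macrophages among them. Muscle regenerating from injury contains all of these cell types, and fibro-adipogenic progenitors of the muscle can become adipocytes.

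The arrays carried the transcripts of muscle. Ckm, the creatine kinase of mature fibres, lay between 13.61 and 13.86 on the log2 intensity scale in all 12 arrays, where the median gene had a mean level of 7.15. Adipoq, the adipocyte hormone adiponectin, lay between 7.12 and 8.39, and the macrophage protein Cd68 between 8.58 and 10.87. Ucp1, which defines brown adipocytes, lay between 5.07 and 5.59. These 4 markers were chosen after their values had been seen. In bulk tissue, fewer cells of a type and less RNA per cell cannot be told apart. Replicate 1 of the day 4 AREG group had the narrowest spread of values (interquartile range 2.07, against 2.27 to 2.61 in the others). This array held the highest of the 12 values for 30% of all genes and the lowest for 13.8%.

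At day 4 the comparison asks how AREG-treated and vehicle-treated muscle differed in these genes. Among the droplet coat proteins Plin1 rose, and Plin4 gave higher values in every AREG array without passing the test, whereas Plin2 did not separate the groups. Cidec rose with Plin1, and of the synthesis enzymes Dgat2 rose and Dgat1 did not pass the test. With an adjusted p under 0.05 over all genes as the call, 3 of the 10 genes were called and all 3 were higher, beside 0.79% of all genes called higher, 2.11% called lower and 2.9% called in either direction. An unadjusted p under 0.05 was reached by 6 of the 10 genes and by 17% of all. The change was above 0 for 8 of the 10, as for 59.1% of all genes, and its median was 0.41 on the log2 scale, against 0.037 over all genes.

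Plin1, which guards the droplet of adipocytes, had log2 intensities of 7.80, 7.72 and 8.18 with AREG and of 7.10, 7.08 and 7.60 with PBS (replicates 1 to 3). The groups did not overlap, and replicate 3 was the highest array within each. In log2 units Plin1 rose by 0.64 ± 0.16 (1.56-fold, adjusted p = 0.0497, limma). It was called in only 9 of the 22 alternative settings run. Here and below, ± gives the SE of the fit, whose spread is shared over the 4 groups. Plin4, the perilipin abundant in adipocytes and muscle, read 9.59, 9.64 and 9.86 with AREG and 8.75, 8.79 and 9.14 with PBS. All AREG arrays were again above all PBS arrays, and the difference of 0.80 ± 0.23 (1.75-fold) had an adjusted p of 0.0721. Plin5, which tethers droplets to mitochondria in oxidative tissue, read 7.52, 7.12 and 7.36 against 7.09, 6.88 and 7.04, a difference of 0.33 ± 0.14 (adjusted p = 0.249). The lowest AREG array of Plin5 stood only just above the highest PBS array. Without replicate 1 of the AREG group the difference of Plin5 was 0.24. Plin2, the coat protein found in most cells with droplets, read 10.07, 9.93 and 10.10 with AREG and 9.90, 10.10 and 10.43 with PBS. Its groups overlapped, and the interval of its difference (-0.11, 95% interval -0.46 to 0.24) leaves room for changes in either direction.

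Cidec, which drives the fusion of small droplets into a large one, read 7.86, 7.76 and 8.33 with AREG and 7.30, 7.15 and 7.31 with PBS. The 3 PBS arrays lay close together, all AREG arrays lay above them, and Cidec rose by 0.73 ± 0.16 on the log2 scale (1.66-fold, adjusted p = 0.0334, limma). Its relative Cidea, best known from brown fat, was the only one of the 10 genes below the median level of all genes, with values of 6.21, 5.72 and 5.88 with AREG against 5.71, 5.90 and 5.80. The groups overlapped, and the difference was 0.14 ± 0.12 (adjusted p = 0.682). Without replicate 1 of the AREG group the difference of Cidea was 0.001.

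Of the acyltransferases, Dgat2, which works at the droplet surface on newly made fatty acids, read 9.84, 10 and 10.07 with AREG and 9.07, 9.10 and 9.43 with PBS. The groups stood clear of each other, with a rise of 0.77 ± 0.17 (1.71-fold, adjusted p = 0.0334, limma). Dgat1, an unrelated enzyme that catalyses the same last step in the endoplasmic reticulum, read 7.74, 8.12 and 8.33 against 8.16, 8.31 and 8.32. Here the AREG arrays spread widely and overlapped with the PBS arrays (-0.20, 95% interval -0.52 to 0.12). Without replicate 1 of the AREG group the difference of Dgat1 was -0.0345.

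Neither lipase was called at day 4. Lipe read 8.70, 8.69 and 8.99 with AREG and 8.27, 8.25 and 8.53 with PBS, so that the groups did not overlap, and its difference of 0.44 ± 0.14 had an adjusted p of 0.0915. Pnpla2 read 10.46, 10.24 and 10.42 against 9.83, 9.85 and 10.32, with replicate 3 of the PBS group reaching into the AREG range (0.37 ± 0.20, adjusted p = 0.406). In all, 6 of the 10 genes had AREG arrays entirely above PBS arrays at day 4 and 0 entirely below, where 10.2% and 12% of all genes did so.

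**Figure D1:**
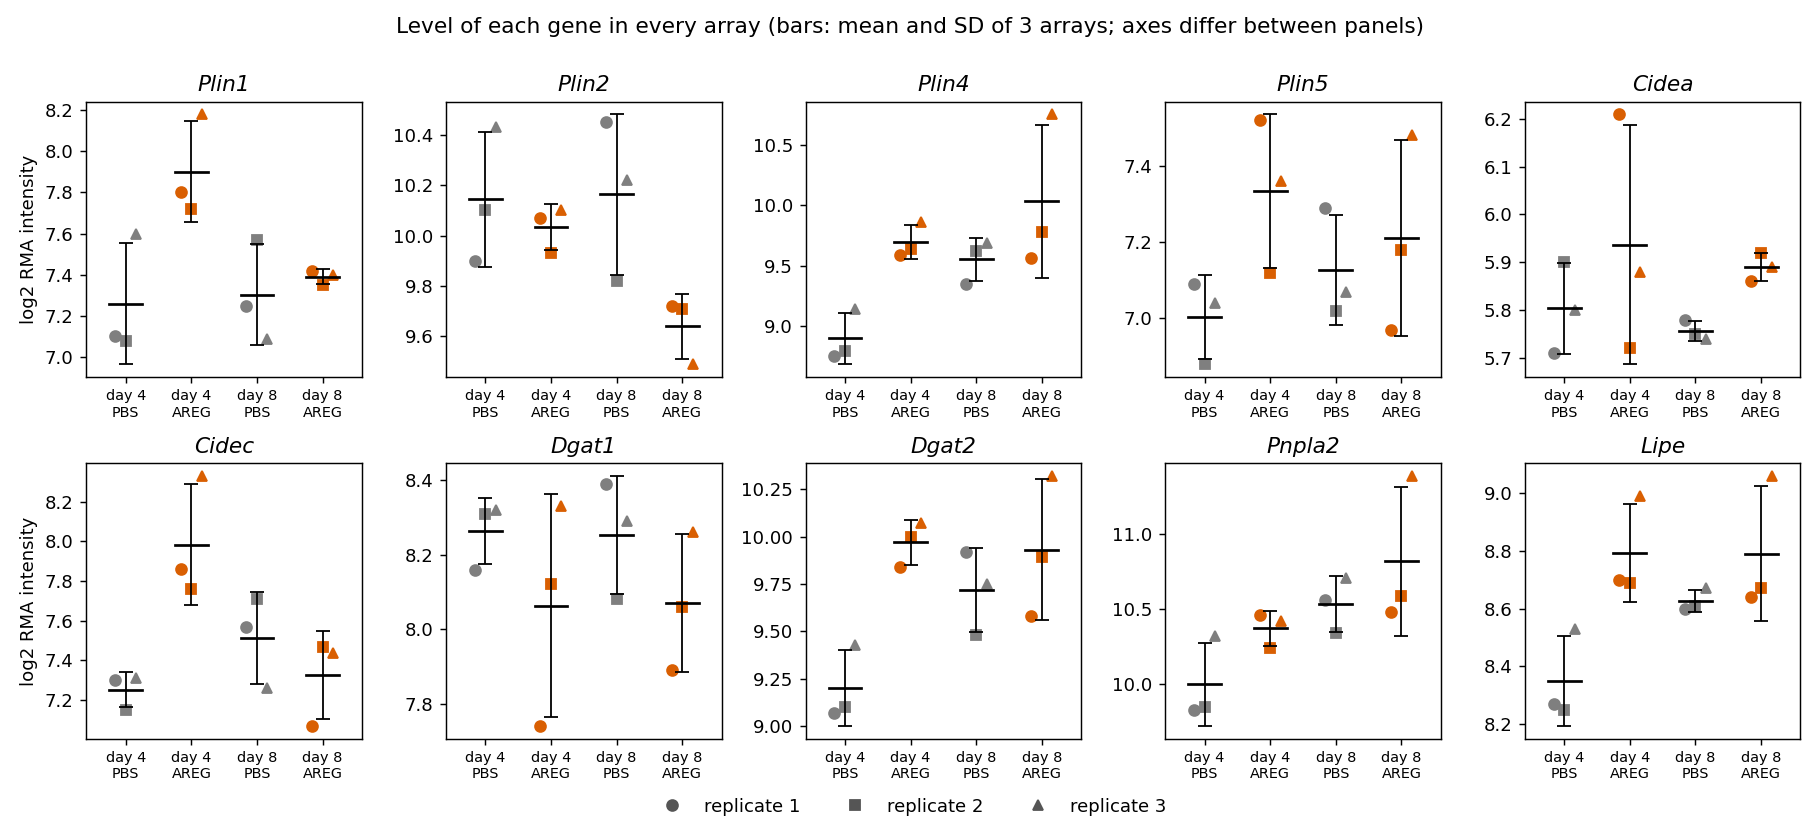
Log2 RMA intensity (y axis, a separate range in each panel) of the 10 genes in the 4 groups (x axis); symbols are single arrays by replicate number, bars give the mean and SD of 3 arrays, and orange marks AREG. At day 4 the AREG arrays of Plin1, Plin4, Plin5, Cidec, Dgat2 and Lipe all lie above the PBS arrays, and at day 8 replicate 3 of the AREG group stands above the others for Plin4 (10.76) and Pnpla2 (11.39).

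The labels state no pairing of arrays. At day 4 AREG and PBS arrays with the same replicate number had correlated deviations (0.558, 0.201 and 0.511 for numbers 1 to 3). However, AREG replicate 2 correlated more with PBS replicate 3 (0.27). The differences within numbers 1, 2 and 3 are given as if the numbers paired the arrays, which is not known. For Lipe they were 0.43, 0.44 and 0.45 on the log2 scale, for Plin1 0.69, 0.64 and 0.59, and for Plin4 0.84, 0.85 and 0.72. Those of Dgat2 were 0.77, 0.90 and 0.64. Cidec was less even, with 0.56, 0.62 and 1.02, and Pnpla2 differed more, with 0.62, 0.39 and 0.09. The differences of Plin2 (0.18, -0.17 and -0.33), Cidea (0.50, -0.18 and 0.09) and Dgat1 (-0.42, -0.19 and 0.02) had no common sign. With the replicate number as a block within each day, a setting chosen after seeing the data, 5 of the 10 genes were called at day 4. Plin4 (adjusted p = 0.0235, limma) and Lipe (adjusted p = 0.0413) joined Plin1, Cidec and Dgat2, while 4.62% of all genes were called. Plin1 did not pass with the replicate number as a block over both days (adjusted p = 0.0537), where Plin4 and Lipe did, nor in a fit of the 6 day 4 arrays alone (adjusted p = 0.0599), where Plin4 did.

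The calls at day 4 were sensitive to leaving out single arrays. Of the 12 fits that leave out 1 array, Plin1 lost its call in 9, and Cidec and Dgat2 lost theirs in 5 each. Leaving out replicate 1 or 3 of the AREG group or replicate 1 or 2 of the PBS group left 0 of the 10 called, and leaving out replicate 2 of the AREG group left 1, although the changes of Plin1, Cidec and Dgat2 stayed above 0 (lowest 0.50, 0.56 and 0.71). The share of all genes called fell in these fits too, from 2.9% with every array. It was 0.0759%, 1.56% and 0.0456% without replicates 1, 2 and 3 of the AREG group. Without replicates 1 and 2 of the PBS group it was 1.15% and 0.0456%. Without replicate 3 of the day 8 AREG group, which enters only through the shared spread, 5 were called, among them Plin4 (adjusted p = 0.00313) and Lipe (adjusted p = 0.0345), and the share of all genes called rose as well, to 6.76%.

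Promoter sequences are shown for the 2 genes that rose together at day 4 and have an entry (Plin1 and Cidec, the latter with both of its starts), for Plin4, whose values moved alike without passing the test, and for Plin2, which did not separate the groups. The sequences are RefSeq's for GRCm38.p6, from 250 bases before a transcript start to 50 bases after it, written 5′ to 3′ along the gene, all on the minus strand: Plin1 at chr7:79732727-79733026, Cidec at chr6:113435711-113436010 (start a) and chr6:113434715-113435014 (start b), Plin4 at chr17:56109733-56110032 and Plin2 at chr4:86670010-86670309. Capitals mark letters that match a searched motif.
Plin1: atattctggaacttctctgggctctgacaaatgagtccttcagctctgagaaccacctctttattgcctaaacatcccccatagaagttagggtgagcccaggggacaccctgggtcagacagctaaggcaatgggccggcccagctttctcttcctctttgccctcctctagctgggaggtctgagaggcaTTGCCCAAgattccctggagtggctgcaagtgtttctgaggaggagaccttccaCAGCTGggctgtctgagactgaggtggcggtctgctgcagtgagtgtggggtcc
Cidec start a: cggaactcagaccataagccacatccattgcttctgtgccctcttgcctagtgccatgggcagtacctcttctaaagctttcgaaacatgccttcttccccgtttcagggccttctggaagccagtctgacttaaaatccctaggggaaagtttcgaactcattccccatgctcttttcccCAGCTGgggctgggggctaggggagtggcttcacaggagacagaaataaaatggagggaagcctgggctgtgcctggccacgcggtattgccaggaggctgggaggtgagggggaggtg
Cidec start b: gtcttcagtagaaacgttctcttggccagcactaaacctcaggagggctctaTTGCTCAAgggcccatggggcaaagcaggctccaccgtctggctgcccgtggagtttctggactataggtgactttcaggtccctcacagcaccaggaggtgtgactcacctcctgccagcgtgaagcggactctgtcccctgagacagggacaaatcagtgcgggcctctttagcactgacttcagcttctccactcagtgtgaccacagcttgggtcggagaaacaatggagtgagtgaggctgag
Plin4: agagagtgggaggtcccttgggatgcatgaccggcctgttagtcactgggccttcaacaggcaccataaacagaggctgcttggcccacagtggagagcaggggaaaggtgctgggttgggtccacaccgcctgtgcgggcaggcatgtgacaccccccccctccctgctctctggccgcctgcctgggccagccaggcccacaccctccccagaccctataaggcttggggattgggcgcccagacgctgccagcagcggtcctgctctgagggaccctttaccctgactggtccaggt
Plin2: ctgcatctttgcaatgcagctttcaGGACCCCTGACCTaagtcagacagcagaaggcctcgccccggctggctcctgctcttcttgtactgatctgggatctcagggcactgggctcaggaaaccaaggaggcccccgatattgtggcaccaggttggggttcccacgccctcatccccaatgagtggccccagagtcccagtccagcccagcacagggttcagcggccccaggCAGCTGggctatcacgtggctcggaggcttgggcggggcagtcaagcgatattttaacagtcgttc

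Promoters of 7 of the 10 genes, with 10 windows between them, were searched, and those of Dgat1, Dgat2 and Cidea were not analysed here. On both strands 4 motifs were searched: the half-site AGGTCA repeated in the same direction with 1 base between, read by PPAR and RXR receptors (up to 2 mismatches), TTGCGCAA read by C/EBP factors (up to 1 mismatch), the E-box CAGCTG read by myogenic factors (exact) and TCACCCCAC of the sterol response element read by SREBP (up to 1 mismatch). No match overlapped another. The direct repeat was matched in 1 of the 10 windows, that of Plin2, 225 bases before the start on the reverse strand as AGGTCAGGGGTCC, against 3.86% of 32851 promoters. The C/EBP letters were matched in Plin1 (TTGCCCAA, 58 bases before the start) and at start b of Cidec (TTGCTCAA, 198 bases before it), against 5.92% of all promoters. The E-box lay in 4 windows, in Plin1, Plin2, Plin5 and at start a of Cidec, against 16.3% of all. The SREBP letters lay in 1 window, that of Pnpla2, with matches at 189 (reverse strand) and 20 bases before the start, against 9.82% of all, and with the A that precedes them in the element they lay in 0 windows, against 1.95%. Plin4 held none of the 4 in its window. These are matches of letters, not sites shown to be bound.

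At day 8, in Foxp3-DTR+ mice, none of the 10 genes was called for AREG against PBS (limma), and 1 of them, Plin2, had an unadjusted p under 0.05, beside 0.00506% of all genes called and 7.62% with an unadjusted p under 0.05. Plin2 gave lower values with AREG, 9.72, 9.71 and 9.49, than with PBS, 10.45, 9.82 and 10.22. All its AREG arrays lay below all PBS arrays, by 0.53 ± 0.16 on the log2 scale (95% interval -0.87 to -0.18, adjusted p = 0.599). It was the only gene of the 10 with non-overlapping groups in that direction, as were 7.14% of all genes, and Cidea (0.13 ± 0.12) was the only one entirely higher, as were 7.06%. The change was above 0 for 7 of the 10 genes and for 51.2% of all, with a median of 0.11 against 0.0052.

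The other perilipins overlapped between the groups at day 8. Plin4 read 9.56, 9.78 and 10.76 with AREG and 9.35, 9.62 and 9.69 with PBS. Replicate 3 of the AREG group carried most of the difference of 0.48 ± 0.23 (adjusted p = 0.656, limma), and without it the difference was 0.12. Plin1 read 7.42, 7.35 and 7.40 against 7.25, 7.57 and 7.09, and Cidec read 7.07, 7.47 and 7.44 against 7.57, 7.71 and 7.26. The intervals of their differences ran from -0.26 to 0.44 for Plin1 and from -0.54 to 0.16 for Cidec. Plin5 differed by 0.086 ± 0.14, Dgat2 by 0.21 ± 0.17, Dgat1 by -0.18 ± 0.15 and Lipe by 0.16 ± 0.14.

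Replicate 3 of the day 8 AREG group held the highest of the 12 values for Plin4, Dgat2 (10.32), Pnpla2 (11.39) and Lipe (9.06), that is for 4 of the 10 genes, where it was the highest array for 10.7% of all genes. Its Pnpla2 value exceeded the higher of the other 2 AREG arrays of that day (10.48 and 10.59) by 0.80, a gap that 0.59% of all genes reached, and its Plin4 value by 0.98, which 0.27% reached. The same array was the lowest of the 12 for Plin2. It did not stand out within its group for Plin1 or Cidec. In this array the mean of the macrophage list was 8.27 on the log2 scale against 9.48 and 9.09 in the other 2, and that of the fibro-adipogenic progenitor list was 9.26 against 10.12 and 10.01, and that of the regenerating fibre list 8.73 against 9.27 and 9.02. The adipocyte list stood at 8.07 against 8.11 and 8.29, and the mature fibre list at 13.02 against 13.02 and 13.05. The part of these cell types in the Pnpla2 and Plin4 values was not tested. Without this array the day 8 difference of Pnpla2 changed from 0.28 ± 0.20 to -0.0009, that of Dgat2 from 0.21 to 0.020, that of Lipe from 0.16 to 0.023 and that of Plin5 from 0.086 to -0.049. Plin2 kept a difference of -0.45.

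**Figure D2:**
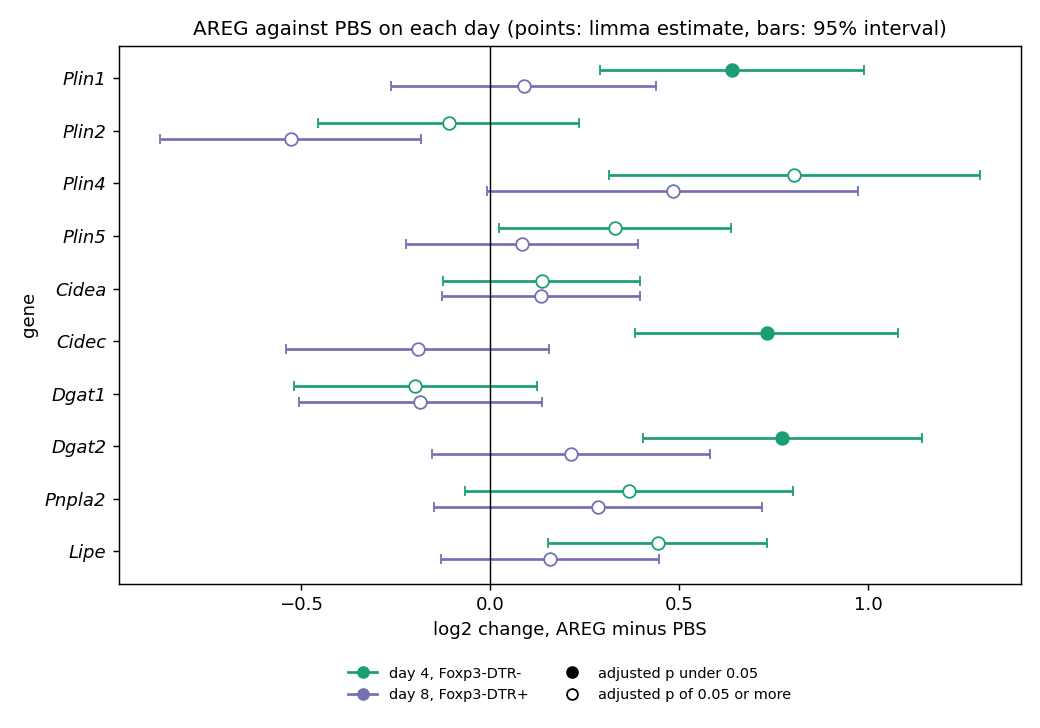
Log2 change, AREG minus PBS (x axis), of each of the 10 genes (y axis) at day 4 in Foxp3-DTR- mice and at day 8 in Foxp3-DTR+ mice; points are limma estimates, bars 95% intervals, and filled points have an adjusted p under 0.05. Plin1, Cidec and Dgat2 are filled at day 4, none is filled at day 8, and Plin2 lies farthest below 0 at day 8 (-0.53).

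Whether the AREG effect differed between the settings was tested directly. None of the 10 genes passed for the difference of the effects (limma), 3 of them had an unadjusted p under 0.05, and 0% of all genes were called, with 5.87% at an unadjusted p under 0.05. The effect of Cidec changed by -0.92 ± 0.23 on the log2 scale from day 4 to day 8 (unadjusted p = 0.00114, adjusted p = 0.557), the lowest p of the 10. Dgat2 (-0.56 ± 0.24) and Plin1 (-0.55 ± 0.23) were the others with an unadjusted p under 0.05. The difference was below 0 for 9 of the 10 genes, Dgat1 (0.014 ± 0.21) being the exception, and above 0 for 47.2% of all genes, with a median of -0.30 against -0.013 over all genes. The intervals are wide: that of Plin4 ran from -1.01 to 0.37.

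Averaged over both settings, Plin4 rose with AREG by 0.64 ± 0.16 (adjusted p = 0.0432, limma) and Dgat2 rose by 0.49 ± 0.12 (adjusted p = 0.0405), so 2 of 10 genes were called, where 0.415% of all genes were called higher, 2.99% lower and 3.41% in either direction. Plin1 (0.36 ± 0.12) and Lipe (0.30 ± 0.096) each had an adjusted p of 0.0957, and Plin2 was at -0.32 ± 0.11 (adjusted p = 0.14). Without replicate 3 of the day 8 AREG group Plin4 passed at 0.46 (adjusted p = 0.0292) and Dgat2 did not (0.40, adjusted p = 0.0644), nor did Dgat2 without replicate 2 of that group (adjusted p = 0.0696). Neither passed without any 1 of replicates 1 to 3 of the day 4 AREG or day 8 PBS groups, or without replicate 1 or 2 of the day 4 PBS group, with adjusted p of 0.0592 to 0.133. With the block within each day 4 genes were called, Plin1 (adjusted p = 0.0335) and Lipe (adjusted p = 0.0439) in addition, and 5.59% of all genes.

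The next question was how vehicle-treated muscle at day 8 in Foxp3-DTR+ mice differed from that at day 4 in Foxp3-DTR- mice. None of the 10 genes was called (limma), 3 had an unadjusted p under 0.05, and 2.34% of all genes were called (1.19% higher and 1.15% lower), with 13.1% at an unadjusted p under 0.05. The change was above 0 for 8 of the 10 and for 41.3% of all genes. Plin4, Dgat2, Pnpla2 and Lipe had day 8 arrays entirely above day 4 arrays, 4 of 10 genes, where 9.17% of all genes did, and 0 of the 10 had the reverse, where 14.2% did. Plin4 read 9.35, 9.62 and 9.69 at day 8 against 8.75, 8.79 and 9.14 at day 4 (0.66 ± 0.23, adjusted p = 0.202). Pnpla2 read 10.56, 10.34 and 10.71 against 9.83, 9.85 and 10.32 (0.53 ± 0.20, adjusted p = 0.251), so the lowest day 8 array lay just above the highest day 4 array. Dgat2 differed by 0.52 ± 0.17 (adjusted p = 0.176) and Lipe by 0.28 ± 0.14 (adjusted p = 0.404). Plin1 (0.041 ± 0.16), Plin2 (0.023 ± 0.16) and Dgat1 (-0.0067 ± 0.15) lay near 0. Without replicate 3 of the day 8 AREG group, which only changes the shared spread here, Plin4 (adjusted p = 0.0106) and Pnpla2 (adjusted p = 0.04999) passed, as did 3.64% of all genes. This comparison shares the day 4 PBS arrays with the AREG effect at day 4, so a low value in those arrays raises both.

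Among the AREG arrays the same comparison of days gave other values. None of the 10 genes was called (limma), 4 had an unadjusted p under 0.05, and 0.719% of all genes were called, with 10.3% at an unadjusted p under 0.05. The change was above 0 for 3 of the 10 and for 34.8% of all genes. Cidec (-0.66 ± 0.16, adjusted p = 0.0921), Plin1 (-0.51 ± 0.16, adjusted p = 0.238) and Plin2 (-0.39 ± 0.16, adjusted p = 0.404) had day 8 arrays entirely below day 4 arrays, 3 of 10 genes, where 8.97% of all genes did. Pnpla2 (0.45 ± 0.20) was the only one entirely above, as were 4.2% of all genes. Without replicate 3 of the day 8 AREG group Cidec passed (-0.72, adjusted p = 0.0489), as did 2.32% of all genes. Dgat2 (-0.044 ± 0.17) and Lipe (-0.0062 ± 0.14) lay near 0. The order of the group means therefore differed between genes. For Plin1 and Cidec the day 4 AREG group was highest and clear of the next, with the other 3 groups overlapping in order. For Plin4, Dgat2 and Lipe the day 4 PBS group was lowest and clear of the next, with the other 3 overlapping in order. For Plin2 the day 8 AREG group was lowest and clear of the next, and for Plin5, Cidea, Dgat1 and Pnpla2 each group overlapped its neighbour in the order.

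**Figure D3:**
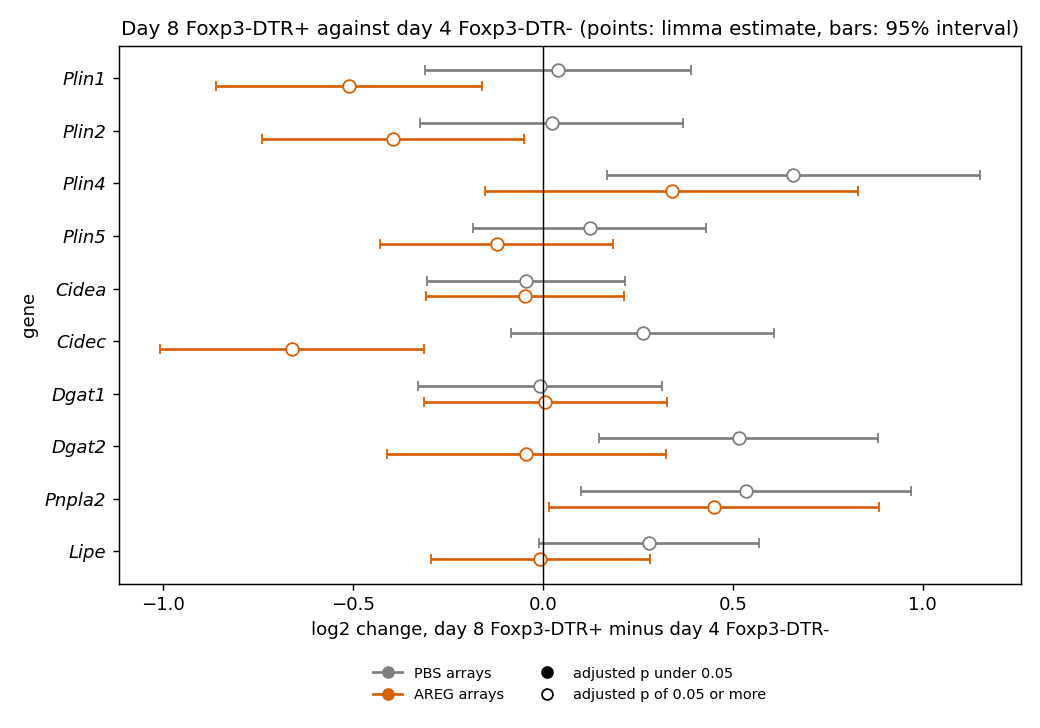
Log2 change, day 8 Foxp3-DTR+ minus day 4 Foxp3-DTR- (x axis), of each of the 10 genes (y axis) within the PBS arrays and within the AREG arrays; points are limma estimates, bars 95% intervals, and open points have an adjusted p of 0.05 or more. All points are open; Cidec lies at 0.26 in PBS arrays and at -0.66 in AREG arrays, and Pnpla2 lies above 0 in both (0.53 and 0.45).

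Other genes of droplet handling and triglyceride metabolism were taken from lists of pathway members. Of 18 droplet and lipolysis partners, 1 rose and 1 fell with AREG at day 4: Ces1d, a carboxylesterase that hydrolyses triglyceride, rose by 1.08 ± 0.28 (adjusted p = 0.0492), and Lipa, the acid lipase of lysosomes, fell by 1.26 ± 0.29 (adjusted p = 0.0338). The median of that list was 0.15. Of 16 measured enzymes of triglyceride synthesis, 1 was called: Gpam, the mitochondrial enzyme that attaches the first fatty acid to glycerol phosphate, rose by 0.45 ± 0.11 (adjusted p = 0.0398), with a list median of 0.11. Of 12 genes of fatty acid uptake, Vldlr, a lipoprotein receptor, rose by 0.86 ± 0.21 (adjusted p = 0.0446), and Fabp5, a fatty acid carrier of macrophages and other cells, fell by 1.20 ± 0.21 (adjusted p = 0.0198). Of 15 transcriptional regulators, Ppargc1a, a coactivator of mitochondrial genes, rose by 0.65 ± 0.11 (adjusted p = 0.0198) and Mlxipl, the carbohydrate-responsive factor ChREBP, by 0.62 ± 0.15 (adjusted p = 0.0371). Pparg, the receptor that directs adipocyte formation and is given here for comparison, was at -0.18 ± 0.14 (adjusted p = 0.633).

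Several of these day 4 calls were also sensitive to leaving out single arrays. Of the 12 fits that leave out 1 array, Gpam lost its call in 10, Ces1d and Vldlr in 9 and Mlxipl in 7. Lipa lost its call in 5 and Fabp5 and Ppargc1a in 3, and every gene kept its sign in each fit. At day 8 limma called 0 genes of these 4 lists. The medians were 0.0015 for the partners, -0.075 for synthesis, 0.13 for uptake and 0.034 for the regulators, against 0.0052 over all genes. The smallest p within each list were those of Lipa (-0.81 ± 0.29, adjusted p = 0.622), Gpd1 (-0.29 ± 0.14), Acsl4 (-0.34 ± 0.13) and Rxra (0.36 ± 0.13). For the mean effect Lipa (-1.03 ± 0.20) and Fabp5 (-0.86 ± 0.15) fell and Ppargc1a (0.34 ± 0.081), Rxra (0.36 ± 0.089) and Mlxipl (0.41 ± 0.10) rose, and between the PBS groups Ppargc1a alone passed (0.49 ± 0.11, adjusted p = 0.0353). For the mean effect Rxra lost its call in 10 of the 12 such fits, Mlxipl and Ppargc1a in 9, Lipa in 4 and Fabp5 in 2, and between the PBS groups Ppargc1a lost its call in 7.

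Marker lists of several cell types were set beside the 10 genes at day 4. Of 18 measured adipocyte markers 15 were above 0 and 2 rose (Lgals12, an adipocyte galectin, by 0.93 ± 0.19, and Mlxipl, counted among the regulators as well), with a median of 0.37; none was called lower. Without single arrays Lgals12 lost its call in 4 of 12 fits. The mean of this list per array ran from 8.25 to 8.65 on the log2 scale with AREG and from 7.88 to 8.30 with PBS, so the groups overlapped slightly. Adipoq itself read 7.64, 7.96 and 8.39 with AREG and 7.24, 7.23 and 7.81 with PBS, a difference of 0.57 ± 0.24 (adjusted p = 0.227). Replicate 3 was the highest array of each day 4 group for Adipoq, Plin1 and Cidec. The same held for Plin2, Plin4, Dgat1, Dgat2, Lipe, Ckm and the mature fibre list, so it was not particular to adipocyte genes. The brown adipocyte list had 0 of 10 called and a median of 0.059. All 22 mature fibre markers were above 0, with a median of 0.18 and 1 called, Tcap of the sarcomere (0.63 ± 0.13, lost in 5 of 12 such fits), and their mean ran from 12.99 to 13.11 against 12.80 to 12.93.

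Of 20 macrophage markers 12 fell at day 4 and the median was -1.05, with list means of 8.33 to 8.74 with AREG and of 9.31 to 9.68 with PBS. Lgals3 fell by 1.59 ± 0.29, Msr1 by 1.23 ± 0.24 and Cd68 by 1.42 ± 0.28 on the log2 scale, and each lost its call in 3 of 12 such fits. Of 15 regenerating fibre markers 6 fell (median -0.94). Of 12 fibro-adipogenic progenitor markers 1 rose (Gsn, 0.48 ± 0.11, lost in 6 of 12 such fits), with a median of -0.11. Of 12 endothelial markers 0 were called, with 11 above 0, 1 below and a median of 0.30. Endothelial list means ran from 8.89 to 9.23 with AREG and from 8.63 to 8.92 with PBS, a slight overlap as for the adipocyte list. The part of any of these cell types in the changes of Plin1, Cidec and Dgat2 was not tested. At day 8, where Plin2 was lower in all AREG arrays, the macrophage list had 0 of 20 called and a median of -0.52, with means of 8.27 to 9.48 with AREG and of 9.24 to 9.74 with PBS. Its part in the Plin2 values was not tested. The adipocyte list then had a median of -0.034, with 0 called and means of 8.07 to 8.29 against 8.04 to 8.25. Between the PBS groups 1 of the 18 adipocyte markers rose (Thrsp, 0.73 ± 0.16, lost in 4 of 12 such fits), the macrophage list had 0 called and a median of -0.063, and 7 of the 15 regenerating fibre markers fell, Chrng by 2.32 ± 0.22.

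**Figure D4:**
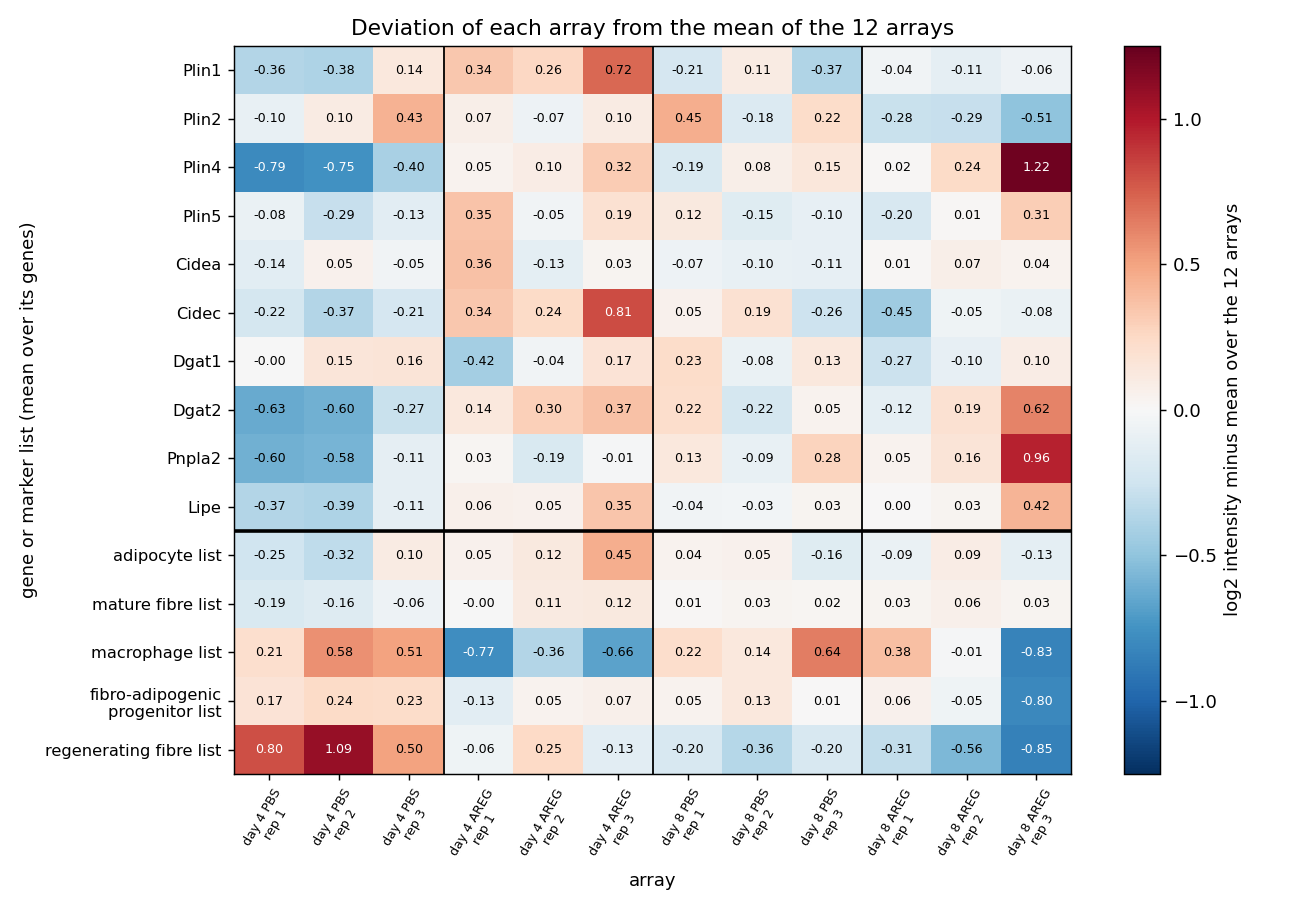
Log2 intensity of the 10 genes and mean log2 intensity of 5 marker lists (y axis) in each of the 12 arrays (x axis), given as the deviation from that gene's or list's mean over the 12 arrays (colour and printed value). Replicate 3 of the day 4 AREG group is highest for Plin1, Cidec and the adipocyte and mature fibre lists. Replicate 3 of the day 8 AREG group is highest for Plin4, Dgat2, Pnpla2 and Lipe and lowest for the macrophage, progenitor and regenerating fibre lists.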

How the data were processed

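Affymetrix Power Tools and RMA, which corrects background, equalises arrays and summarises probes, were named by the submitters' processing notes; for versions, genome build and annotation the sources used here give nothing. The authors deposited each value as an intensity, linear and between 4.65 and 21512.5, and array medians lay from 134 to 143. RMA can compress changes of dim clusters. The array's gene table gave 1 symbol for 21425 of 24922 clusters, several for 1399 and none for 2098. A gene with several clusters was represented by the one with the highest mean, which gave 19752 genes. Names were checked by Entrez number against RefSeq (GRCm38.p6; 21347 matched).

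The log2 of each intensity was used, without a pseudocount. limma 3.58.1 in R 4.3.3 fitted 4 group means with 1 shared spread (8 residual and 7.1 prior degrees of freedom). Tests were two-sided, p was adjusted over all genes by Benjamini-Hochberg, and the call was at 0.05. The steps were tested on simulated data. With 3 arrays against 3, permutation p-values stop at 0.1 and were not computed.

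The members, lists, comparisons and alternatives were chosen with earlier results of these data known. Named were all members and, of each list, genes chosen among up to 4 called per direction, or else the 2 with the smallest p. Adipoq, Ckm, Cd68, Ucp1, Pparg and Scd1 were added after their values were seen. List members without a cluster of their own were not analysed here. Alternatives were array weights, other eBayes settings, normalisations, filters and pseudocounts, a replicate block, and leaving out each array.

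Pairing was checked on deviations from the group means. At day 4 same-numbered AREG and PBS arrays had correlations of 0.558, 0.201 and 0.511, against -0.486 to 0.27 for different numbers. The ranges overlap, so these values do not establish a pairing. The differences within numbers and the block treat the day 4 arrays as if they were paired. At day 8 same-numbered AREG and PBS arrays had -0.198, 0.123 and -0.003, which does not pair them. The labels state no pairing, so values come from the fit without a block unless a block is named.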

Additional observations from a re-analysis of the deposited data

How the results depend on the processing

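The number of members called changed with the setting. For AREG at day 4 it was 3, and 7 with array quality weights, which put the day 4 AREG mean mainly on replicate 3 (weight 5.52, against 0.167 and 0.936). It was 5 with the replicate number as a block within each day, an alternative chosen after seeing the data, 4 with the planned replicate block over both days, and 0 to 5 when single arrays were left out. Over all genes 573 were called in the main fit, against 599 with the planned replicate block and 912 with the block within each day. The count was 5305 with weights and 9 to 1336 when single arrays were left out. For the mean effect the 2 calls (3.41% of all genes) became 1 with trend and robust eBayes (3.1%) and 7 with weights (24.8%). They became 0 with a pseudocount of 32 (2.42%), 4 with the block within each day (5.59%) and 3 with the planned replicate block (3.51%). Without single arrays they were 0 to 3, and 0.172% to 7.53% of all genes were called. With weights 1 member was called at day 8 (Plin2, adjusted p = 0.0244), 5 for the difference of the effects, 3 between the PBS groups and 5 between the AREG groups, against 0 in each without weights; of all genes 6.03%, 11.3%, 8.35% and 33.8% were then called. Between the PBS groups a fit of the 6 arrays alone called 1 (3.84% of all genes). Without single arrays 0 to 2 were called between the PBS groups (1.06% to 3.64% of all genes) and 0 to 1 between the AREG groups (0.4% to 2.32%). For AREG at day 8 and for the difference 0 were called. The planned replicate block changed no call of these comparisons except for Plin1 (lost, adjusted p = 0.0537), Plin4 (gained, adjusted p = 0.0285) and Lipe (gained, adjusted p = 0.0451) at day 4 and Lipe (gained, adjusted p = 0.0476) for the mean effect. The cause of these differences was not tested.

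No change called in the fit without weights turned its sign under the alternatives run. With weights Dgat1 stood at 0.0021 at day 4, at -0.23 for the difference and at -0.23 between the AREG groups, where it passed (adjusted p = 0.0239) against 0.0068 without weights, Cidea at 0.13 for the difference and 0.045 between the AREG groups, and Plin4 at -0.018 between the AREG groups. After repeated quantile normalisation Plin2 stood at -0.024 and Cidea at 0.046 between the PBS groups, and Cidea at 0.036 between the AREG groups. Centred on array medians, Cidea stood at 0.030 for the difference and 0.0016 between the AREG groups, Dgat1 at 0.0096 between the PBS groups, and Dgat2 at 0.0047 and Lipe at 0.042 between the AREG groups. Without single arrays the ranges that cross 0 were, for AREG at day 4, Plin2 -0.23 to 0.034; for AREG at day 8, Plin1 -0.016 to 0.22, Plin5 -0.049 to 0.20 and Pnpla2 -0.0009 to 0.46; for the difference, Cidea -0.11 to 0.13, Dgat1 -0.15 to 0.15 and Pnpla2 -0.37 to 0.088. Between the PBS groups they were Plin1 -0.092 to 0.21, Plin2 -0.12 to 0.19, Cidea -0.091 to 0.0044 and Dgat1 -0.075 to 0.081, and between the AREG groups Plin4 -0.023 to 0.57, Cidea -0.16 to 0.089, Dgat1 -0.16 to 0.14, Dgat2 -0.24 to 0.13 and Lipe -0.14 to 0.091. Cidea lies below the median level and was not in the fit of genes at or above it. The number of arrays limits the precision.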

Other observations

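Scd1, the desaturase that makes monounsaturated fatty acids for triglyceride, belongs to the adipocyte list. Parts of its pattern were seen in Cidec and Plin2, but neither showed all of it. Cidec had AREG effects of the same signs (0.73 at day 4 and -0.19 ± 0.16 at day 8), but its day 8 groups overlapped. All day 8 AREG arrays of Plin2 lay below the PBS arrays, but its day 4 effect was -0.11 with overlapping groups. The share of all genes with such signs was not computed. Log2 intensities of Scd1 were 11.12, 10.98 and 11.60 with AREG and 10.49, 10.23 and 11 with PBS at day 4. At day 8 they were 9.86, 9.91 and 9.20 with AREG and 10.40, 10.66 and 10.29 with PBS. The AREG arrays were thus high at day 4, with 1 of them just below the highest PBS array, and all were below the PBS arrays at day 8. The AREG effects were 0.66 ± 0.22 at day 4 (adjusted p = 0.12, limma) and -0.80 ± 0.22 at day 8 (adjusted p = 0.599), and their difference of -1.46 ± 0.31 had an unadjusted p of 0.000294 and an adjusted p of 0.528. Among the AREG arrays Scd1 fell by 1.58 ± 0.22 on the log2 scale from day 4 to day 8 (adjusted p = 0.00196), and among the PBS arrays it was at -0.12 ± 0.22. The gene was singled out after its values had been seen.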
